A study of Mus musculus with 20 samples.

Results

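The aortic transcriptome after very low doses of radiation was examined in the 8 mice that received 0, 5, 10 or 25 cGy, of 20 mice in the study. The mice were chosen by dose alone. The 6 mice given 5, 10 or 25 cGy, 3 of them exposed to high energy protons and 3 to gamma rays, were compared with the 2 mice at 0 cGy, which are called sham and of which each radiation type had 1. All 8 were wildtype, adult male C57BL/6 mice of 10 to 12 weeks, and they differed by label only in radiation type and dose. The dose was given to the whole body of conscious mice, sham mice were restrained in the irradiator without exposure, the thoracic aorta was taken 4 h later, and polyA-selected, stranded libraries were sequenced. Each dose of a type was given to 1 mouse, so within a type a dose and an individual mouse cannot be told apart. The p-values below measure the spread that each fit leaves among these 8 mice. For single doses this spread is how far the proton and gamma mouse of the same dose disagree. In the comparison over all doses it also holds differences between the doses. Spread among mice of the same dose and type is not measured. The authors resampled the libraries to a common depth, and 6056303 to 6057352 sense-strand counts per mouse remained, so the deposited counts have equal totals. Their composition still differed between mice, and the tests used TMM scaling factors of 0.970 to 1.02. A total of 3 counts, or 4.95e-05% of a library, was taken as the smallest detectable share, which covers counting error only, since PCR copies of a molecule were not marked.

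Ionizing radiation breaks DNA, and the kinase ATM stabilizes the transcription factor p53 in response. p53 then induces genes that stop the cell cycle, repair DNA or start apoptosis, together with genes such as Mdm2 that limit p53 itself. The aortic wall is mostly smooth muscle, lined by endothelium and surrounded by an adventitia with fibroblasts, macrophages and fat, and RNA of the whole tissue mixes all of these cells.

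The libraries did not hold these cell types in equal measure. Contractile smooth muscle markers summed to 359282 to 416135 counts per mouse over 14 genes, and the actin gene Acta2 alone had 120155 to 155033 counts in every mouse. The 7 measured blood cell genes, of which the globin genes were the most abundant, summed to 6065 and 7522 counts in the proton and gamma sham mice and to 11184 in the gamma mouse at 25 cGy. In the other 5 irradiated mice they summed to between 138 and 1015. The 13 macrophage and MHC class II genes summed to 4808 and 4658 counts in the sham mice, to 4279 in the gamma mouse at 25 cGy and to between 811 and 2005 in the other 5. The 14 endothelial genes followed the same order, with 9428 and 9120 counts in the sham mice, 8584 in the gamma mouse at 25 cGy and 3680 to 6290 in the other 5. Both sham mice and the gamma mouse at 25 cGy were therefore high in all 3 marker groups, and the other 5 mice were low. Over all tested genes, the gamma sham mouse and the gamma mouse at 25 cGy had the lowest chi-square per degree of freedom of the 28 pairs of mice, 3.33. The gamma mice at 5 and 10 cGy were nearly as close, with 3.34, and the 2 sham mice were further apart, with 8.47. The proton sham mouse had 5.93 with the gamma mouse at 25 cGy and 5.70 with the proton mouse at 10 cGy. The whole libraries thus grouped in part as the marker sums did. The gamma sham mouse and the gamma mouse at 25 cGy each had their 2 lowest values with the other mice high in the markers. Pairs among the 5 mice low in the markers had 3.34 to 8.06. The proton sham mouse was not set apart in this way, since it had 7.43 with the proton mouse at 25 cGy besides the 5.70 above. In bulk RNA, fewer cells of a type and less RNA per cell cannot be told apart. The part of this tissue composition in the results below was not tested, and fits with marker levels as a covariate are given where they were run.

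**Figure D1:**
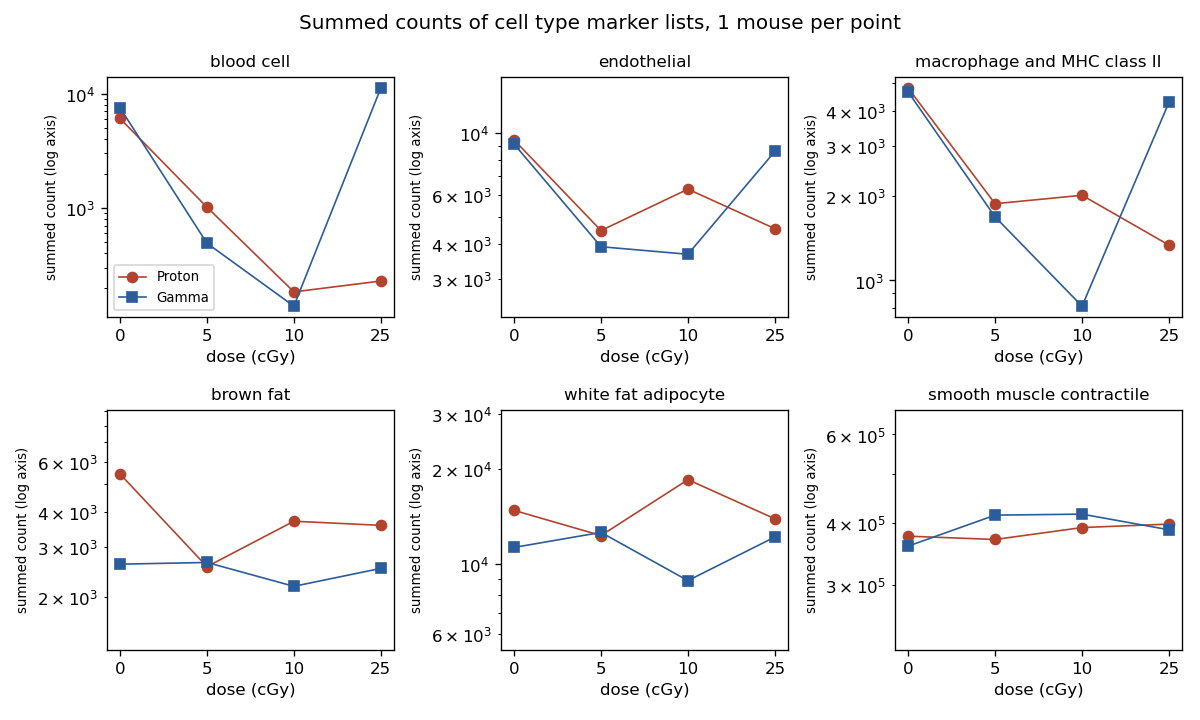
Summed counts of 6 cell type marker lists in each mouse (log axis) against dose in cGy, with 1 mouse per point, circles for proton and squares for gamma. The gamma mouse at 25 cGy sits with both sham mice for blood cell (11184), endothelial (8584) and macrophage (4279) markers, while smooth muscle markers stay between 359282 and 416135.

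The first question was which genes differed between the 6 irradiated and the 2 sham mice, with radiation type as a covariate, among the 13031 genes whose counts averaged 5 or more in the 8 mice. No gene passed an adjusted p of 0.1 in edgeR's quasi-likelihood test, and the smallest adjusted p was 0.572. At an unadjusted p under 0.05, 488 genes (3.74%) were higher and 636 (4.88%) were lower in irradiated mice. DESeq2 called 0 genes as well, with 263 higher and 482 lower at an unadjusted p under 0.05 and a smallest adjusted p of 0.107. With a correction for GC content and transcript length the direction of the unadjusted genes turned, to 680 higher and 514 lower, so no balance of higher and lower genes is read from them. The same test at single doses gave 0 genes at 5, 10 and 25 cGy, and a slope on dose from 0 to 25 cGy also gave 0. The contrasts at single doses share the sham mice and are given side by side only.

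**Figure D2:**
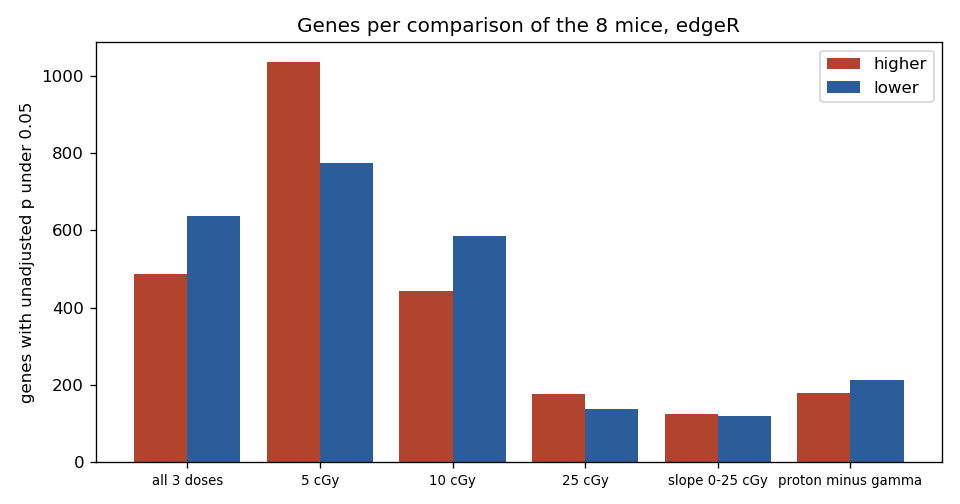
Number of genes with an unadjusted p under 0.05 in edgeR (bars from 0, higher and lower genes apart) for each comparison of the 8 mice. The contrast of 5 cGy with sham has the most, 1034 higher and 775 lower, and the slope from 0 to 25 cGy has 124 and 119; none of these genes passed an adjusted p of 0.1.

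The gamma mouse at 25 cGy decided this count. Without it, 96 genes (0.737%) were higher and 440 (3.38%) lower at an adjusted p of 0.1, and without both 25 cGy mice 114 were higher and 285 lower. Leaving out any other single mouse, or both mice at 5 or at 10 cGy, gave 0. Of the genes called without the gamma mouse at 25 cGy, the lower ones held 12 of 13 macrophage and MHC class II genes, 8 of 14 endothelial genes, 4 of 7 blood cell genes and 4 of 12 genes for vascular adhesion molecules and chemokines. The higher ones held 2 of 14 contractile smooth muscle genes. Most of the 440 lower genes are in none of the lists, and no list of fibroblast genes was made. Pdgfra (log2 difference -0.92), Dcn (-0.98) and Upk3b (-4.02), chosen after their values were seen, were among the lower genes. Of the 18 collagen and elastic fibre genes, 0 passed. None of the genes in the 5 lists of p53 targets passed in that fit. When the mean level of the endothelial and macrophage markers was added as a covariate to the fit of all 8 mice, 0 genes passed, and the unadjusted counts were 150 higher and 98 lower. This mean log2 level was itself 5.63 and 5.52 in the proton and gamma sham mice and 5.46 in the gamma mouse at 25 cGy. The other irradiated mice had 3.94 to 4.89, so marker level and irradiation are largely confounded in this fit.

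Response in both radiation types was also asked without a model. In 1223 genes (9.39%) all 3 irradiated mice lay above the sham mouse of their own type in proton and in gamma mice, and in 1259 (9.66%) all lay below, on counts scaled by TMM. On counts as deposited, without this scaling, the numbers were 937 and 1383. In 652 genes (5.00%) the 25 cGy mouse was the highest of the 4 doses in both types, and in 607 (4.66%) the lowest.

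Among the p53 targets, 16 of 53 measured genes were highest at 25 cGy in both types and 1 was lowest, against the 5.00% and 4.66% of all genes. These lists are not independent of the study, which had called 15 of their 57 members dose-responsive with these 8 mice included, and 14 of the 15 were tested. Of those 14, 11 were highest at 25 cGy in both types, and of the other 39 tested p53 targets 5 were highest and 1 was lowest. Of the 53, 6 (11.3%) lay above sham in all irradiated mice of both types and 1 (1.89%) below, beside the 9.39% and 9.66% of all genes. The median log2 difference from sham over these 53 genes was 0.03 at 5 cGy, 0.05 at 10 cGy and 0.19 at 25 cGy, and the median over all genes was 0.00 at each dose. By function, the medians at 25 cGy were 0.32 for 6 genes that feed back on p53, 0.28 for 9 genes of cell cycle arrest, 0.18 for 12 of apoptosis, 0.08 for 9 of DNA repair and 0.27 for 18 of metabolism and stress. In the same order, the medians at 5 and 10 cGy were 0.00 and 0.16, 0.20 and -0.15, 0.11 and 0.05, -0.11 and 0.10, and -0.06 and -0.02. The medians thus did not rise with each dose in every list. None of these genes passed an adjusted p of 0.1 in edgeR.

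Promoter sequence is shown for Cdkn1a, Aen, Bax and Ccng1, the p53 targets with the smallest p for the slope on dose, and for Mdm2, whose protein degrades p53. Each line holds the 250 bases before an annotated transcription start, 5′ to 3′ on the strand of the gene, from RefSeq on GRCm38.p6. The capitals mark matches to the p53 half-site. For each gene the first annotated start with a match in these bases is shown, so every sequence shown holds a match by this choice. Cdkn1a had 2 windows, of which 1 held a match, and Aen had 2, of which 2 did. This motif of 10 letters reads the same on both strands, overlapping matches were counted, and 8.36% of all 32851 promoter windows of 300 bases (250 before and 50 after a start) hold it. Cdkn1a is shown at chr17:29090729-29090978 (plus strand), Aen at chr7:78895808-78896057 (plus), Bax at chr7:45466899-45467148 (minus), Ccng1 at chr11:40755287-40755536 (minus) and Mdm2 at chr10:117710759-117711008 (minus).
Cdkn1a: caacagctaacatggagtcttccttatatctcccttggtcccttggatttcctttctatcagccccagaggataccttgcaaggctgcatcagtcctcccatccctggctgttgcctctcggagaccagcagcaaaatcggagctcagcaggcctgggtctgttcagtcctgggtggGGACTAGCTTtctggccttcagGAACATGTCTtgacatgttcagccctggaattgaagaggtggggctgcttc
Aen: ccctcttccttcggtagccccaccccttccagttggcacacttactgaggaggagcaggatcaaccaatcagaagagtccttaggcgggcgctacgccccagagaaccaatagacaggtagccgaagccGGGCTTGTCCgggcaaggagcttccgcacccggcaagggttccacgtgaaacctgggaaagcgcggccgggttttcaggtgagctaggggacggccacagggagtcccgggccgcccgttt
Bax: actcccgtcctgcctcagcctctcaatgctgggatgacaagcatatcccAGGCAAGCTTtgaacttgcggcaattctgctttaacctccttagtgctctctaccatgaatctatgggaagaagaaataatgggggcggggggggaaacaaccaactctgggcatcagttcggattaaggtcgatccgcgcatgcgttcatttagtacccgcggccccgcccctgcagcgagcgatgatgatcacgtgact
Ccng1: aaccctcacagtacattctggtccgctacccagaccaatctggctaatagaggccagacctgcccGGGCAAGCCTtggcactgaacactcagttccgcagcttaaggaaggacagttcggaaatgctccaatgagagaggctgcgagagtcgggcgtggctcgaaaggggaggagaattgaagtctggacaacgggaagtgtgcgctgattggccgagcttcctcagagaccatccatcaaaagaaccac
Mdm2: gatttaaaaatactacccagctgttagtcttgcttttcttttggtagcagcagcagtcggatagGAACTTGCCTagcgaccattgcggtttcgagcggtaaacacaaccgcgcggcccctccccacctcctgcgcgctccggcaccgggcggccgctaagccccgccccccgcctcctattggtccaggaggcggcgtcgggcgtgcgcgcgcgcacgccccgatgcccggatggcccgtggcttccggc
The Cdkn1a window holds 2 matches separated by 12 bases, an arrangement with a gap of up to 13 bases that occurs in 24 of the 32851 windows, and the other 4 hold 1 match each. Only exact matches were counted. A stretch close to the motif, such as the bases directly after the second Cdkn1a match, is not marked and does not enter the pairs. Over the p53 targets, 43 of the 53 genes had a window, and 15 of their 54 windows (27.8%) held a match. It was 10 of 21 windows (47.6%) for the 16 genes that were highest at 25 cGy in both types and 5 of 33 (15.2%) for the rest, of which 10 genes had no window. By gene, 9 of the 16 and 5 of the 27 others with a window held a match. The split was made by the counts of these same mice. Of the 16 genes, 11 are on the study's list, which was chosen with these mice included. The difference was not tested and is not independent evidence. The motif is a description of these windows and not a measured binding site.

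Cdkn1a encodes the cyclin-dependent kinase inhibitor p21, which stops the cell cycle, and lies on chromosome 17 at 29227924 to 29237667 (mm9). It had 345, 563, 546 and 1027 counts at 0, 5, 10 and 25 cGy of protons and 366, 262, 517 and 845 counts at the same doses of gamma rays. Both 25 cGy mice were above all 6 others, both 10 cGy mice were above both sham mice, and the 5 cGy mice lay on opposite sides of sham. The log2 slope of Cdkn1a over 25 cGy was 1.41 ± 0.22 (SE, 8 mice), with an unadjusted p of 1.95e-04 and an adjusted p near 1 in edgeR. DESeq2 gave a slope of 1.40 and an adjusted p of 1.92e-05, and it gave 0.0111 for the contrast of 25 cGy with sham. Cdkn1a was the only gene that DESeq2 called in either comparison. Without both 5 cGy mice, edgeR also called it alone, with a slope of 1.39 and an adjusted p of 0.0336. This fit was added with the data in view, and it leaves out the mice that lay on opposite sides of sham. Cdkn1a is also on the study's list, which was chosen with these mice included. The call is therefore not independent evidence. With the endothelial and macrophage score as a covariate the slope was 1.39 (unadjusted p = 7.54e-04).

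Aen, a nuclease that promotes apoptosis (chromosome 7 at 86040740 to 86056095, mm9), had 133, 164, 177 and 236 counts after protons and 160, 145, 166 and 237 after gamma rays. Bax, the pore-forming activator of mitochondrial apoptosis (chromosome 7 at 52717065 to 52722268, mm9), had 164, 202, 181 and 275 counts after protons and 191, 182, 212 and 267 after gamma rays. Both genes were highest in the 25 cGy mice. The 10 cGy mice of Aen lay just above all mice at 0 and 5 cGy, and in Bax the values at 0, 5 and 10 cGy overlapped. The log2 slopes over 25 cGy were 0.70 ± 0.11 for Aen (unadjusted p = 1.37e-04) and 0.60 ± 0.12 for Bax (unadjusted p = 5.20e-04), both with an adjusted p near 1. Of the other genes of apoptosis, the TNF receptor family member Eda2r had 13, 24, 25 and 36 counts after protons and 20, 5, 18 and 45 after gamma rays. Fas, the death receptor, was lowest at 5 cGy in both types, with 508, 400, 494 and 505 counts after protons and 573, 410, 508 and 505 after gamma rays. The Fas slope was 0.02 and changed sign in 7 of the alternative fits, so no direction with dose is given. Perp, a membrane protein of desmosomes, ranged only from 712 to 872 counts over the 8 mice.

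Among the genes that feed back on p53, Ccng1, which encodes cyclin G1 (chromosome 11 at 40562054 to 40568813, mm9), had 704, 701, 784 and 883 counts after protons and 727, 640, 789 and 1025 after gamma rays. Mdm2, the ubiquitin ligase of p53 (chromosome 10 at 117125944 to 117147814, mm9), had 376, 377, 400 and 442 counts after protons and 332, 332, 341 and 393 after gamma rays. The order of doses in Mdm2 was the same in both types, with equal or nearly equal counts at 0 and 5 cGy, but the proton mouse at 0 cGy was above the gamma mouse at 10 cGy. Slopes were 0.46 ± 0.10 for Ccng1 (unadjusted p = 8.21e-04) and 0.24 ± 0.07 for Mdm2 (unadjusted p = 0.00934). The phosphatase gene Ppm1d had 119, 107, 121 and 127 counts after protons and 94, 109, 119 and 152 after gamma rays. Trp53inp1, whose product promotes p53 activity, was highest at 25 cGy after protons (962 counts against 412 to 545 at the lower doses) and at 10 cGy after gamma rays (689 counts, with 599 at 25 cGy).

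Of the genes of cell cycle arrest besides Cdkn1a, Sesn2, a sestrin that restrains mTOR signalling, had 50, 60, 43 and 77 counts after protons and 32, 49, 29 and 77 after gamma rays. Gtse1, whose product moves p53 out of the nucleus, had few counts, 7, 11, 9 and 15 after protons and 3, 1, 7 and 18 after gamma rays. Both were highest in the 25 cGy mice. Below that dose, Sesn2 was higher at 5 than at 0 and at 0 than at 10 cGy in both types, and Gtse1 had no order that the types shared. The antiproliferative gene Btg2 differed between the types instead. It had 487, 347, 335 and 413 counts after protons and 352, 388, 407 and 528 after gamma rays, so the proton sham mouse was its highest of the former and the gamma sham mouse its lowest of the latter.

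In the group of metabolism and stress, 9030617O03Rik (named Dglucy in RefSeq, a D-glutamate cyclase) had 54, 50, 66 and 106 counts after protons and 52, 42, 41 and 85 after gamma rays. The thiamine transporter gene Slc19a2 had 51, 55, 65 and 83 counts after protons and 54, 44, 66 and 76 after gamma rays. Ephx1, the microsomal epoxide hydrolase, had 885, 954, 1022 and 1295 counts after protons and 1153, 762, 893 and 1446 after gamma rays. In all 3 genes both 25 cGy mice were above the 6 others, and their slopes were 0.97 ± 0.21, 0.65 ± 0.19 and 0.53 ± 0.17 on the log2 scale. Gdf15, a stress-induced cytokine, was also highest at 25 cGy in both types, on few counts, with 3, 9, 2 and 10 after protons and 7, 5, 1 and 18 after gamma rays. Of 9 DNA repair targets, the exonuclease gene Trex1 was the only one highest at 25 cGy in both types, and it had 3 to 10 counts per mouse.

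**Figure D3:**
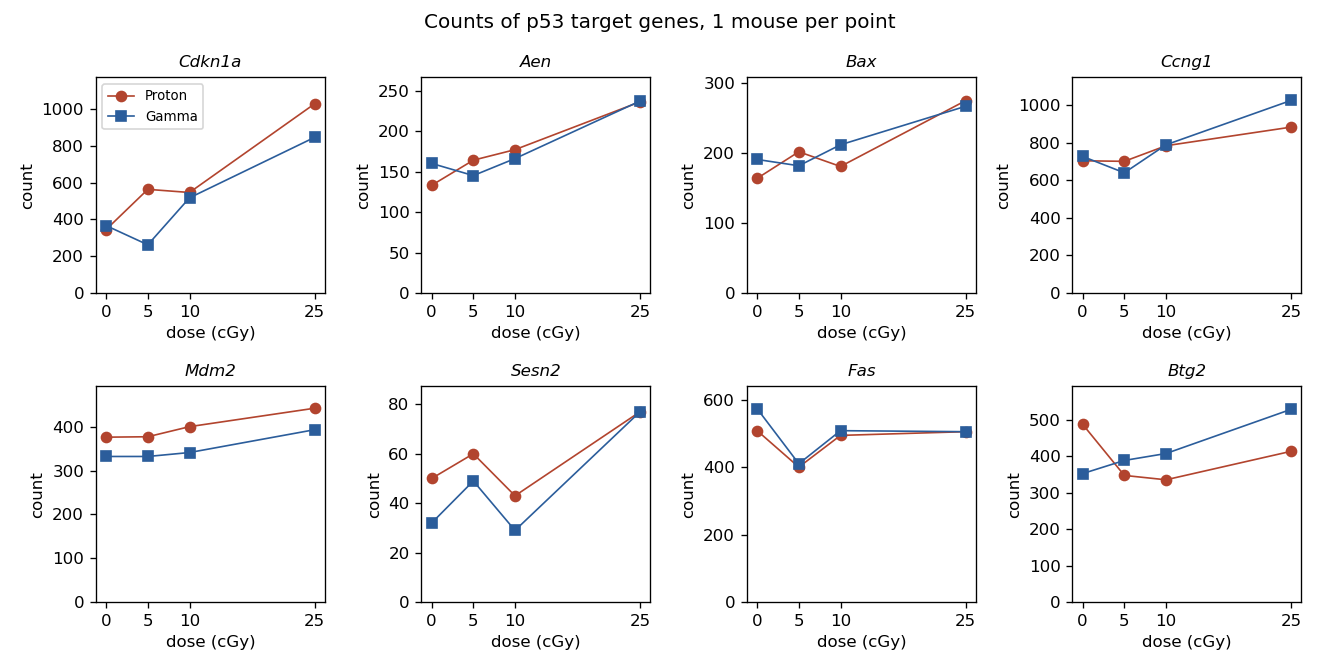
Counts of 8 p53 target genes against dose in cGy, with 1 mouse per point, circles for proton and squares for gamma, each axis starting at 0. Cdkn1a, Aen, Bax, Ccng1, Mdm2 and Sesn2 are highest at 25 cGy in both types, Fas is not, and Btg2 runs in opposite directions from sham.

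The slopes were also fitted without the sham mice. Over the 6 irradiated mice alone, the slopes were 1.42 for Cdkn1a, 0.71 for Aen, 0.59 for Bax, 0.53 for Ccng1 and 0.23 for Mdm2. The genes that sense and repair DNA damage upstream of p53 are a separate list. Of 21 measured, 3 were highest and 0 lowest at 25 cGy in both types (5.00% and 4.66% of all genes), and their median log2 difference at 25 cGy was 0.06. Chek2, a checkpoint kinase in this group, was lower in all irradiated mice than in its own sham, with 38, 26, 27 and 26 counts after protons and 40, 19, 27 and 27 after gamma rays (unadjusted p = 0.0185).

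A list of 19 genes was taken from the study, as those responsive to both radiation types over all doses. It was chosen with these 8 mice included and is not independent evidence. Of its 18 tested genes, 11 were highest at 25 cGy in both types, all of them also in the p53 lists (5.00% of all genes), and the median log2 difference was 0.00 at 5 cGy, 0.22 at 10 cGy and 0.59 at 25 cGy. The remaining 7 included the RNA helicase gene Ddx3x (2448 to 3164 counts over the 8 mice) and Igf2r, the receptor for insulin-like growth factor 2 (507 to 678 counts).

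The mast cell protease genes Tpsb2 and Mcpt4 were among the 10 genes with the smallest p for a negative slope. Tpsb2 had 30, 16, 20 and 6 counts after protons and 23, 20, 14 and 9 after gamma rays, and its slope was -1.74 ± 0.39 (unadjusted p = 0.00133). Mcpt4 had 25, 12, 10 and 11 counts after protons and 35, 22, 9 and 6 after gamma rays. Cep68, which encodes a centrosomal protein, was lower with each dose in both types, with 178, 145, 133 and 123 counts after protons and 178, 151, 137 and 124 after gamma rays. Sos2, a guanine nucleotide exchange factor for Ras, was lowest at 25 cGy, with 314, 258, 270 and 212 counts after protons and 288, 260, 261 and 234 after gamma rays. All of these had an adjusted p near 1. At an unadjusted p under 0.05, 124 genes (0.952%) had a positive and 119 (0.913%) a negative slope.

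The contrast of 5 cGy with sham held the largest number of small p-values, 1034 higher (7.93%) and 775 lower (5.95%) without adjustment, and its smallest adjusted p was 0.129. DESeq2 called 80 genes higher (1.47%) and 23 lower (0.422%) of the 5452 to which it gave an adjusted p, and edgeR called 74 higher (0.480%) and 18 lower (0.117%) of the 15421 genes with a mean count of 1 or more. With all 20 mice in the fit the count was 0. Without TMM, 768 were higher and 1054 lower at an unadjusted p under 0.05, and with the GC and length correction 1280 were higher and 540 lower. The 5 cGy libraries also differed from the rest in base composition. The deviation of each gene from its mean correlated with GC content at 0.195 and 0.204 in the proton and gamma mouse at 5 cGy and at -0.104 to -0.0131 in the other 6 mice, over 9609 genes, which are not independent. The part of GC content beyond that correction was not tested.

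Slc25a34, a gene of the mitochondrial carrier family, was among the 5 higher genes named at 5 cGy, with 648, 1570, 1050 and 512 counts after protons and 679, 1694, 1033 and 857 after gamma rays. The 5 cGy mice were the highest of each type, the 10 cGy mice came next, and the log2 difference at 5 cGy was 1.34 (adjusted p = 0.129 in edgeR and 1.76e-07 in DESeq2). Mical1 and Micall1, which encode a flavoprotein that oxidizes actin and a related adaptor of endosomal membranes, had the same order. Mical1 had 1026, 1587, 1498 and 1243 counts after protons and 1189, 1691, 1525 and 1257 after gamma rays. Micall1 had 899, 1530, 1130 and 1082 counts after protons and 959, 1352, 1168 and 997 after gamma rays. Cnn2, a calponin of the actin cytoskeleton, had 1962, 3007, 2348 and 2104 counts after protons and 2270, 3074, 2571 and 2241 after gamma rays. The sulfotransferase gene Sult1a1 had 244, 432, 317 and 234 counts after protons and 203, 299, 263 and 203 after gamma rays. In each of these genes the 5 cGy mice did not overlap with the sham or the 25 cGy mice. The genes were named by their smallest p for 5 cGy against sham, so the gap from sham follows largely from that choice. The share of all genes that separate in this way was not counted. Heyl, a transcriptional target of Notch, was chosen after its values were seen, and it had 1934, 3966, 2167 and 1915 counts after protons and 2092, 3074, 2463 and 2052 after gamma rays.

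Genes that were lower at 5 cGy included Arid5b, a chromatin regulator, with 369, 133, 360 and 286 counts after protons and 233, 128, 254 and 224 after gamma rays. Calcrl, which encodes the receptor for calcitonin gene-related peptide and adrenomedullin, had 429, 145, 297 and 383 counts after protons and 395, 209, 283 and 408 after gamma rays. The log2 differences at 5 cGy were -1.13 for Arid5b and -1.18 for Calcrl, and both values returned towards sham at 10 and 25 cGy. Ehd4, an endosomal ATPase, had 957, 518, 740 and 681 counts after protons and 1003, 508, 613 and 946 after gamma rays. Acss1, the mitochondrial acetyl-CoA synthetase, had 157, 45, 92 and 81 counts after protons and 94, 44, 54 and 87 after gamma rays. In Ehd4 and Acss1 the gamma mouse at 25 cGy lay close to its sham, as the endothelial and macrophage markers did.

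Metallothionein genes, which bind zinc and are induced by glucocorticoids and metals, were high in the mice at 5 and 10 cGy. Mt2 had 125, 591, 180 and 108 counts after protons and 103, 256, 277 and 129 after gamma rays, and Mt1 had 390, 1174, 533 and 372 after protons and 348, 625, 693 and 373 after gamma rays. The log2 differences at 5 cGy were 1.91 for Mt2 (adjusted p = 0.277 in edgeR and 0.00176 in DESeq2) and 1.31 for Mt1 (0.245 and 0.00308). The glucocorticoid target Fkbp5 was high in the proton mouse at 5 cGy alone, with 385 counts against 69 to 133 in the 7 others. Over the 14 genes of the glucocorticoid and metallothionein list the median log2 difference was 0.18 at 5 cGy, 0.25 at 10 cGy and 0.02 at 25 cGy. At 5 cGy, 4 were higher and 2 lower at an unadjusted p under 0.05 in edgeR, beside 7.93% and 5.95% of all genes. None of the list lay above its own sham in all irradiated mice, and 1 (7.14%) lay below, the glucocorticoid target Tsc22d3. The shares of all genes were 9.39% above and 9.66% below.

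**Figure D4:**
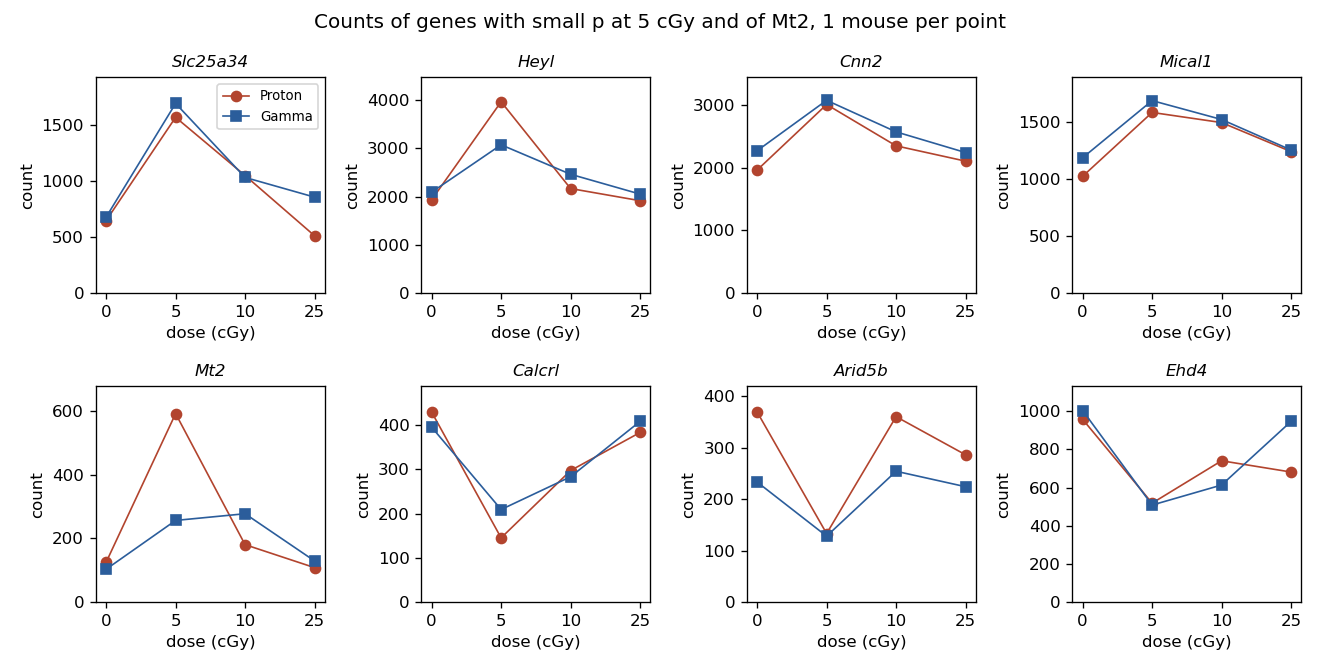
Counts of 7 genes with small p at 5 cGy and of Mt2 against dose in cGy (doses evenly spaced), with 1 mouse per point, circles for proton and squares for gamma, each axis starting at 0. Slc25a34, Heyl, Cnn2 and Mical1 peak at 5 cGy in both types, and Calcrl, Arid5b and Ehd4 are lowest there.

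At 10 cGy the unadjusted counts were 444 higher (3.41%) and 584 lower (4.48%), or 322 and 674 without TMM and 618 and 463 with the GC and length correction, and DESeq2 called 0 genes, with 136 higher and 318 lower at an unadjusted p under 0.05. Itga5, the fibronectin receptor subunit, had 3360, 5557, 5065 and 4117 counts after protons and 3802, 5534, 5331 and 3631 after gamma rays. Its 10 cGy mice lay above all mice at 0 and 25 cGy (log2 difference 0.57), as did its 5 cGy mice. Itga5 was named by its small p at 10 cGy, so the gap of the 10 cGy mice from sham follows largely from that choice. Pik3ap1, a signalling adaptor of immune cells, had 36, 14, 7 and 12 counts after protons and 37, 10, 3 and 29 after gamma rays. The gene had few counts and, like the macrophage markers, was close to sham in the gamma mouse at 25 cGy. At 25 cGy, 176 genes were higher (1.35%) and 137 lower (1.05%) without adjustment, and 4 of the 5 higher genes with the smallest p were Aen, Bax, Ccng1 and Sesn2.

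Over all 3 doses, the smallest p belonged to 2310050B05Rik, a gene annotated as a processed transcript (chromosome 10 at 80657354 to 80673622, mm9), which was chosen after its values were seen. It had 94, 144, 177 and 148 counts after protons and 96, 161, 147 and 168 after gamma rays, so that the lowest irradiated mouse was above the higher sham mouse. Its log2 difference was 0.75 ± 0.12 (unadjusted p = 7.26e-05, adjusted p = 0.572). Of the 15 higher genes named by smallest p, 14 passed an adjusted p of 0.1 without the gamma mouse at 25 cGy, and of the 15 lower genes all 15 did. The choice by p in the same mice favours passing, so these numbers are not independent evidence. The mouse left out was the only irradiated mouse high in blood cell, macrophage and endothelial markers, as the sham mice were. The part of tissue composition in this fit was not tested.

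Notch3, a Notch receptor of vascular smooth muscle (chromosome 17 at 32257765 to 32303825, mm9), had 459, 671, 706 and 654 counts after protons and 542, 742, 690 and 604 after gamma rays. The irradiated range of 604 to 742 lay above both sham mice, and the log2 difference was 0.47 ± 0.10 (unadjusted p = 9.49e-04). Without the gamma mouse at 25 cGy it was 0.53, with an adjusted p of 0.0138, which is not independent of the choice of Notch3 by its small p. Sncg, which encodes gamma-synuclein, had 87, 108, 150 and 163 counts after protons and 68, 103, 106 and 121 after gamma rays, in the order of dose in both types. Sema3g, a secreted semaphorin, had 62, 112, 171 and 117 counts after protons and 58, 87, 91 and 79 after gamma rays. Srgap3, a GTPase-activating protein for Rac, had 218, 237, 295 and 291 counts after protons and 165, 247, 307 and 256 after gamma rays. Cacna1h, a T-type calcium channel, had 37, 52, 78 and 64 counts after protons and 18, 39, 46 and 41 after gamma rays. Nrip2, which encodes a protein that binds nuclear receptors, had 5, 32, 56 and 35 counts after protons and 1, 43, 24 and 8 after gamma rays. Its fitted log2 difference of 3.46 ± 0.79 rests on 6 counts in the 2 sham mice together.

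Among the lower genes, Ccng2, which encodes cyclin G2 (chromosome 5 at 93696283 to 93705257, mm9), was low in all 6 irradiated mice, the gamma mouse at 25 cGy included. It had 153, 98, 111 and 100 counts after protons and 155, 107, 112 and 105 after gamma rays, and the log2 difference was -0.52 ± 0.11 (unadjusted p = 5.25e-04). Adamts2, the procollagen N-proteinase, had 2088, 1687, 1591 and 1743 counts after protons and 2100, 1586, 1502 and 1707 after gamma rays, and the log2 difference was -0.33 ± 0.07. In both genes the highest irradiated mouse was below the lower sham mouse. Without the gamma mouse at 25 cGy, Ccng2 passed with an adjusted p of 0.0607 and Adamts2 with 0.0424. Both were chosen by their small p in these mice, so these values are not independent evidence.

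The other lower genes named by smallest p included 4 that are known from immune cells. Tlr13, an endosomal receptor for bacterial RNA, had 16, 3, 4 and 3 counts after protons and 19, 3, 2 and 8 after gamma rays. Ms4a6b, a membrane protein of leukocytes, had 61, 24, 21 and 19 counts after protons and 63, 18, 13 and 42 after gamma rays. The C-type lectin receptor gene Clec4a1 had 32, 10, 11 and 4 counts after protons and 47, 11, 7 and 25 after gamma rays. Hpgds, the prostaglandin D synthase of blood-derived cells, had 22, 6, 9 and 8 counts after protons and 31, 4, 2 and 13 after gamma rays. In each of these genes the gamma mouse at 25 cGy was the highest gamma mouse after sham.

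Of the macrophage and MHC class II list, 9 of 13 genes were below their own sham in all 6 irradiated mice and 0 above, against 9.66% and 9.39% of all genes, and the median log2 difference was -1.26. Csf1r, the receptor that macrophages need to survive, had 493, 143, 172 and 125 counts after protons and 528, 154, 74 and 394 after gamma rays. The scavenger receptor gene Cd163 had 179, 102, 89 and 53 counts after protons and 248, 83, 40 and 157 after gamma rays. Lyz2, which encodes lysozyme, had 1323, 595, 625 and 450 counts after protons and 1410, 490, 260 and 1331 after gamma rays. The list median was -1.48 within proton and -1.15 within gamma mice, and none of the genes passed an adjusted p of 0.1.

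The endothelial list was not uniform. It had 8 of 14 genes below sham in all irradiated mice and 2 above, against 9.66% and 9.39% of all genes, with a median log2 difference of -0.47. Pecam1, an adhesion molecule of endothelial junctions, had 3717, 1732, 2365 and 1419 counts after protons and 3525, 1382, 1388 and 3315 after gamma rays. Vwf, von Willebrand factor, had 2105, 481, 1013 and 700 counts after protons and 1784, 311, 438 and 1721 after gamma rays, and Nos3, the endothelial nitric oxide synthase, had 313, 134, 219 and 154 after protons and 476, 116, 113 and 298 after gamma rays. Flt1, a receptor for VEGF, was instead above sham on TMM-scaled counts, with 249, 308, 267 and 249 counts after protons and 186, 265, 237 and 213 after gamma rays. Robo4, a guidance receptor of endothelium, had 27, 40, 41 and 51 counts after protons and 19, 38, 27 and 24 after gamma rays.

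Of 12 measured genes for adhesion molecules and chemokines, 6 were below sham in all irradiated mice and 0 above (9.66% and 9.39% of all genes), and the median log2 difference was -0.46. Vcam1, which captures leukocytes, had 428, 222, 370 and 271 counts after protons and 537, 168, 211 and 513 after gamma rays. Icam1, another leukocyte ligand, had 203, 94, 132 and 76 counts after protons and 234, 63, 57 and 226 after gamma rays. The chemokine gene Ccl11 had 59, 18, 20 and 20 counts after protons and 50, 14, 17 and 41 after gamma rays, and Cxcl12 had 1054, 604, 700 and 678 after protons and 935, 619, 570 and 906 after gamma rays. All 4 were high in the gamma mouse at 25 cGy beside the other irradiated gamma mice, as were the endothelial and macrophage sums. With those markers as a covariate the Vcam1 and Icam1 differences were 0.05 and 0.12. That covariate was itself high in both sham mice, so the part of tissue composition was not tested.

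Contractile smooth muscle genes lay the other way by a small amount. Of 14 genes, 7 were above sham in all irradiated mice and 0 below, beside 9.39% and 9.66% of all genes, with a median log2 difference of 0.14 (0.11 to 0.20 over the other scalings). Cnn1, calponin of contractile filaments, had 11190, 12547, 13021 and 13093 counts after protons and 11883, 14685, 14358 and 13243 after gamma rays. Its log2 difference was 0.25 ± 0.08 (unadjusted p = 0.00786), and it passed with an adjusted p of 0.0465 without the gamma mouse at 25 cGy. Smtn, smoothelin, had 14744, 17901, 16827 and 16192 counts after protons and 13631, 16081, 16922 and 14994 after gamma rays. Acta2 overlapped with sham and changed sign without the gamma sham mouse, from 0.07 to -0.02.

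For the remaining lists the counts are read against the 9.39% of all genes above and the 9.66% below sham, and no pattern is read from them. The 21 interferon-stimulated genes had 0 genes above and 1 below sham in all irradiated mice, Ifit2, with 172, 122, 160 and 134 counts after protons and 188, 135, 152 and 169 after gamma rays. The 18 clock genes had 3 above and 0 below. Of these, the repressor gene Cry2 had 459, 602, 531 and 540 counts after protons and 445, 518, 552 and 527 after gamma rays (log2 difference 0.30 ± 0.08, unadjusted p = 0.0033). The 18 antioxidant genes had 2 above, the quinone reductase gene Nqo1 among them, and 4 below, among them the catalase gene. The 14 chaperone genes had 0 above and 2 below, one being the Hsp70 cochaperone gene Dnaja1, with 624, 492, 558 and 450 counts after protons and 726, 477, 529 and 605 after gamma rays. The 12 genes of the integrated stress response had 0 above and 2 below, and one of them, the pseudokinase gene Trib3, had 7 to 32 counts per mouse. The 17 proliferation genes had 0 and 0, as did the 18 collagen and elastic fibre genes, the 10 white fat genes, the 2 lymphocyte genes and the 7 blood cell genes. The 10 brown fat genes had 0 above and 3 below, the 4 skeletal muscle genes 1 and 0, and the 24 immediate early genes 2 and 0.

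**Figure D5:**
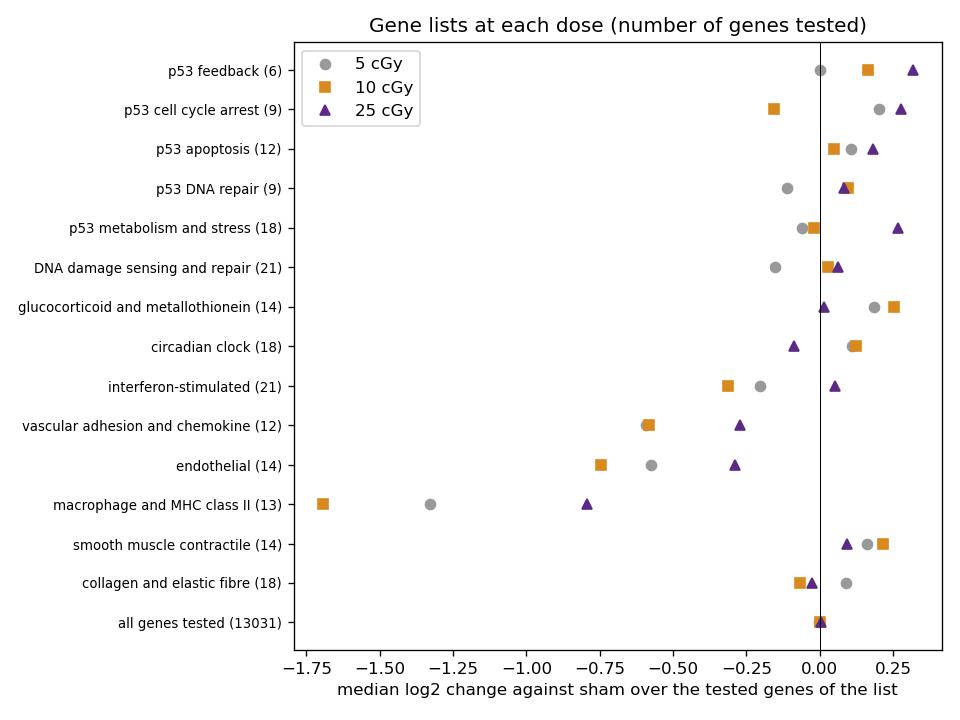
Median log2 difference from sham (x axis) over the tested genes of 14 lists and over all genes, at 5, 10 and 25 cGy. The p53 lists for feedback, arrest, apoptosis and metabolism are highest at 25 cGy (0.18 to 0.32), and the macrophage and endothelial lists lie below 0 at each dose; the 3 doses share the same sham mice.

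The next question was whether the types differed in their change from sham. No gene passed in edgeR, with a smallest adjusted p of 0.878 and with 180 genes (1.38%) higher and 213 (1.63%) lower in the proton than in the gamma change at an unadjusted p under 0.05. DESeq2 called 1 gene, Dusp1, a phosphatase that inactivates MAP kinases and is itself an immediate early gene. It had 1023, 459, 415 and 609 counts after protons and 415, 739, 848 and 925 after gamma rays, and the difference between the changes was -2.06 in edgeR (unadjusted p = 7.92e-05) and -2.05 in DESeq2 (adjusted p = 5.97e-06). Rarb, a retinoic acid receptor, had 216, 72, 82 and 108 counts after protons and 69, 97, 118 and 102 after gamma rays. Hk2, hexokinase 2, had 814, 369, 512 and 491 counts after protons and 224, 341, 315 and 327 after gamma rays. In all 3 genes the proton sham mouse was the highest of the 8, and the gamma sham mouse was the lowest gamma mouse, so each difference rests on 1 sham mouse per type.

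Within a type, with the other type's sham mouse not used, the unadjusted counts were 298 higher (2.29%) and 371 lower (2.85%) for protons and 284 (2.18%) and 322 (2.47%) for gamma rays, and no gene passed an adjusted p of 0.1 in either. The median log2 difference of the p53 targets over the 3 doses was 0.22 for protons and 0.09 for gamma rays, and the difference between these medians was not tested.

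Finally, genes that responded to dose in the 12 mice at 50 to 200 cGy, which this comparison does not use, were followed down to 25 cGy. A slope over 50 to 200 cGy was called at an adjusted p of 0.1 in 1047 genes upwards and 345 downwards. In the 8 mice, 1034 of the former were tested, and their median log2 difference at 25 cGy was -0.03, with 38 (3.68%) highest and 86 (8.32%) lowest at 25 cGy in both types, against 5.00% and 4.66% of all genes. Of the latter 343 were tested, with a median of 0.05, and 19 (5.54%) were highest and 9 (2.62%) lowest at 25 cGy in both types. Over 50 to 125 cGy the slope called 0 genes in either direction, with 118 upwards and 99 downwards at an unadjusted p under 0.05, with the mice at 150 and 200 cGy left out.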

How the data were processed

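RNA of the thoracic aorta of 20 mice was sequenced by the authors as paired reads of 100 bases from stranded, polyA-selected libraries. They processed the runs with CASAVA 1.8.1, aligned the reads with STAR 2.5.2a to mm9, resampled the libraries to a common depth with the PORT pipeline and deposited 1 table of sense-strand read counts for 21078 genes. The 8 mice at 0 to 25 cGy had 6056303 to 6057352 counts each. All gene identifiers were found in GENCODE M1, whose mm9 coordinates are given. Where more than 1 gene carries a symbol, the more abundant one stood for it in a list.

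The count columns were tested as deposited with edgeR 4.0.16 (TMM, robust dispersion, quasi-likelihood test) in R 4.3.3, with radiation type as a covariate and genes whose counts averaged 5 or more in the 8 mice. The contrasts were all irradiated against sham, each dose against sham, a slope on dose and the difference between the types, and p-values were adjusted over all genes tested by Benjamini-Hochberg with a threshold of 0.1. The alternatives were DESeq2 1.42.0, library sizes without TMM, a mean count of 1 or 50, all 20 mice in the fit, no covariate, offsets for GC content and transcript length (12488 of 13031 genes had both), other dose scales, and leaving out each mouse or dose. A fit with the mean log2 level of endothelial and macrophage markers as a covariate, slopes without the 5 cGy mice and without the sham mice, and the GC offsets at 5 cGy as a separate count were added later, with the data in view. The tests were tried on simulated data. Promoter windows were those of RefSeq on GRCm38.p6. Python 3.11.15, pandas 2.3.3, numpy 2.4.6 and matplotlib 3.10.9 were used for lists and plots.

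The text names the 15 higher and 15 lower protein-coding genes with the smallest p over all 3 doses, 10 in each direction for the slope, 5 in each direction at each dose, 5 for the type difference, and members of 25 gene lists, of which examples are given. Genes outside this rule are identified in the text. The mice, the lists and most tests were chosen with earlier results of these data known. Antisense counts and the RT-PCR measurements were not analysed here. Some genes that the rule selects are not reported here.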

Additional observations from a re-analysis of the deposited data

Results flagged for a closer look

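Over the 6 irradiated mice, 16 of 140 measures (summed counts of gene lists, GC correlation and counts of named genes) had 1 mouse far from the rest by Dixon's test. For normally distributed values that were not selected, chance alone gives about 1 in 20. Some of these counts are low, and many genes were named by small p in these same mice. That rate is therefore no reference for the 16. The measures share genes and mice and are not independent. Of the 16, 13 concerned the gamma mouse at 25 cGy, which was high. It had summed counts of 11184 for blood cell genes (next highest 1015), 4279 for macrophage and MHC class II genes (next 2005) and 2862 for adhesion molecules and chemokines (next 2151). The single genes were Hbb-b1 with 6437 counts, Hba-a1 with 2261, Lyz2 with 1331, Csf1r with 394, C1qa with 325, Man2b2 with 358, Emr1 with 120, Ccl11 with 41, Clec4a1 with 25 and Tlr13 with 8.

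The proton mouse at 5 cGy was far above the other irradiated mice in Fkbp5 (385 counts, next 133) and Mt2 (591 counts, next 277). The proton mouse at 25 cGy was far above them in Zbtb16, another glucocorticoid target (546 counts, next 183).

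In each of the 5 protein-coding genes with the smallest p for the type difference every irradiated proton mouse lay on 1 side of its sham and every irradiated gamma mouse on the other. The choice by p in these same mice favours such opposite movement, and its share over all genes was not counted. The difference between the log2 changes, proton minus gamma, was -2.06 for Dusp1, -1.92 for Rarb, -1.69 for 4833442J19Rik, -1.38 for Hk2 and -1.27 for Gdpd5. In edgeR's quasi-likelihood test none of these passed an adjusted p of 0.1, and DESeq2 called Dusp1 alone.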

How the results depend on the processing

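At an adjusted p of 0.1, the counts at 10 cGy, of lower genes at 25 cGy, of negative slopes and of genes higher in the proton than in the gamma change were 0 under each alternative run. The count over all 3 doses ranged from 0 to 96 higher and from 0 to 440 lower over the fits that leave out 1 mouse, with every value above 0 from the fit without the gamma mouse at 25 cGy, and it was 114 and 285 without both 25 cGy mice. At 5 cGy it was 80 higher and 23 lower in DESeq2, where 7579 adjusted p-values were not given, and 74 and 18 with a mean count of 1 or more. DESeq2 called 1 gene higher at 25 cGy, 1 with a positive slope and 1 lower in the proton than in the gamma change, and the slope without both 5 cGy mice called 1 gene. The slope over 50 to 125 cGy called 0 and 0 genes in the other mice. The causes were not tested. Of named genes, the Fas slope of 0.02 turned to -0.022 with GC and length offsets, -0.085 on log2(dose + 1), -0.0070 on ranked dose and -0.088 without both 5 cGy mice, and it ranged from -0.070 to 0.14 without single mice. The Perp slope of -0.05 turned to 0.088 on log2(dose + 1), 0.026 on ranked dose and 0.0096 without both 5 cGy mice, and ranged from -0.14 to 0.11. The Btg2 slope of 0.22 ranged from -0.00034 to 0.46, and the Acta2 difference from -0.016 to 0.17, the lowest without the gamma sham mouse. The highest Perp and lowest Btg2 slopes were those without the gamma mouse at 25 cGy. With the endothelial and macrophage score as a covariate, Lyz2 turned to 0.069, Hbb-b1 to 0.40, Hba-a1 to 0.68, Vcam1 to 0.050 and Icam1 to 0.12. Lyz2 is itself part of that score, and the score was high in both sham mice. Tissue composition and irradiation are therefore not separated by these values. No paired analysis was possible because each dose of a type had 1 mouse and no replicate numbers to pair, beyond radiation type, which was a covariate. Depth limits genes such as Nrip2, Gtse1 and Trex1, which had under 10 counts in several mice.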
